A study of Homo sapiens with 6 samples.

Results

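The costimulatory members of the tumour necrosis factor (TNF) superfamily described here are 10 genes chosen by symbol, out of 36601 genes in the count table. They comprise 7 receptor genes, TNFRSF4 (OX40), TNFRSF8 (CD30), TNFRSF9 (4-1BB), TNFRSF13C (BAFF receptor), TNFRSF14 (HVEM), TNFRSF18 (GITR) and CD27, and 3 ligand genes, CD70, TNFSF14 (LIGHT) and LTB (lymphotoxin beta). RNA was sequenced from NK92 cells, an IL-2-dependent line established from a human NK lymphoma. The cells stably carried an shRNA, which in the shCtrl group was a control and in the shmiR155HG group targeted the lncRNA miR155HG. Each group had 3 libraries, and both groups had been kept for 12 h in IL-12 at 10 ng/mL together with IL-2 at 1000 U/mL, so no library without these cytokines was compared. The comparison asked how the mRNA of these genes differed when miR155HG was knocked down in stimulated cells. A single established line was used, and the number of shRNA sequences per group is not given in the sources used here. Whether the libraries of a group came from separate transductions or cultures is not given either, so the p-values measure only the spread between these libraries.

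Receptors of this family are membrane proteins that, once bound by their trimeric ligands, recruit TRAF adaptors and switch on the canonical and non-canonical NF-κB pathways. In T and NK cells several of them act as second signals that prolong survival, proliferation and cytokine production after activation. 4-1BB, OX40, GITR, CD27 and CD30 are best known from activated lymphocytes, the BAFF receptor from the survival of mature B cells, and HVEM as a molecule that both receives signals from LIGHT and engages the inhibitory receptor BTLA and CD160. LTB anchors lymphotoxin alpha (LTA) at the cell surface as a heterotrimer that binds the lymphotoxin beta receptor (LTBR).

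Total counts lay between 33454786 and 39157264 per library, and values of single libraries are given in the order of replicates 1, 2 and 3. MIR155HG, the target of the shRNA, had 73, 67 and 62 counts in the shCtrl libraries, and 28, 19 and 10 counts in the shmiR155HG libraries. All of the latter lay below all of the former, as in 15.6% of all genes tested. Of 12 NK cell markers 11 were tested, 4 rose (KLRC1, EOMES, TBX21 and IL2RB) and 2 fell (PRF1 and NCR3). Of all genes tested 7.26% rose and 8.02% fell. The summed level of the NK cell markers was 3230 to 3330 CPM in shCtrl and 3570 to 3660 CPM in shmiR155HG libraries. Of 8 T cell markers 3 were tested and CD6 rose, with a summed level of 353 to 361 against 365 to 375 CPM. CD3E held most of that sum (means of 330.5 and 335.3 CPM) and did not pass the test (adjusted p = 0.755 by edgeR). CD3G, CD4, CD5 and CD8A had at most 3 counts in a library. Of 8 myeloid markers 3 were tested, with 135 to 152 against 109 to 116 CPM in sum. ITGAX fell, CSF1R and CD68 did not pass the test with negative estimates, and CLEC4E and MPO had 0 counts. CD14 of the same list, below the filter, had 7, 2 and 0 counts in the shCtrl libraries and 10, 23 and 17 after the knockdown. These counts did not overlap, as in 30.8% of all genes tested. In the fit without a filter the adjusted p of CD14 was 0.210 by edgeR. Of 26 replication-type histone genes tested, whose mRNA mostly lacks a poly(A) tail, 14 rose in shmiR155HG cells (7.26% of all genes did). Their median log2 fold change was 0.94 over all 26, and the cause was not tested. The part of these differences in the results below was not tested, and in bulk RNA fewer cells with a transcript cannot be told apart from less of it per cell. CPM is the count scaled to a library of 1000000 counts.

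Among the 10 genes, 3 fell in shmiR155HG cells and none rose. TNFRSF13C fell by 39.8%, TNFSF14 fell by 18.2% and LTB fell by 9.29%. TNFRSF8, TNFRSF9 and TNFRSF14 did not pass the test, with estimates on both sides of 0. TNFRSF4, TNFRSF18, CD27 and CD70 did not reach the filter, more than 1 CPM in 2 or more libraries, and were not tested. A gene is said to have risen or fallen where the quasi-likelihood test of edgeR gave a p-value under 0.05 after Benjamini-Hochberg adjustment over all 12263 genes tested. In that test 15.3% of all genes passed, 7.26% as higher and 8.02% as lower in shmiR155HG cells.

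**Figure D1:**
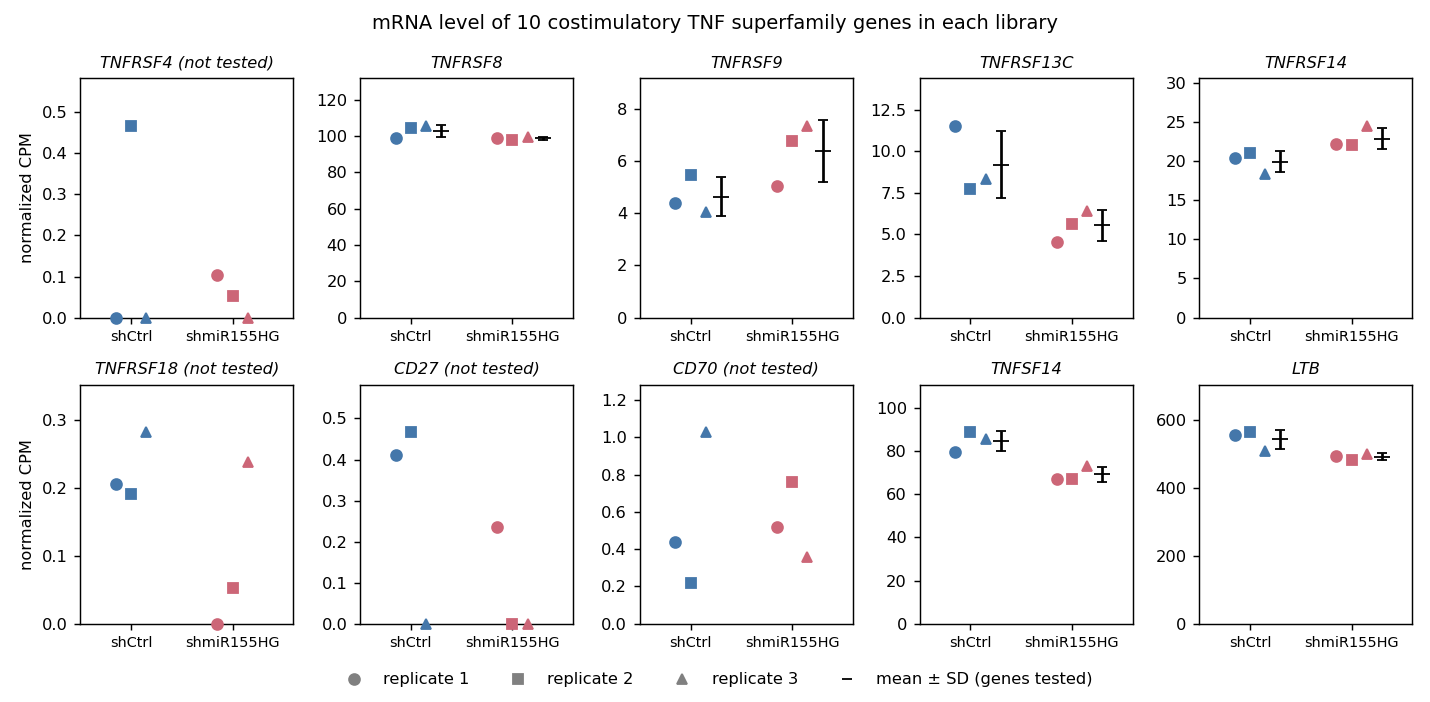
Normalized CPM of the 10 genes (vertical axes, each starting at 0) in the 3 shCtrl and 3 shmiR155HG libraries, with symbols for replicate numbers and bars for the mean ± SD of the genes tested. The points of TNFRSF13C, TNFSF14 and LTB in shmiR155HG cells all lie below those of shCtrl cells, as in 15.6% of all genes tested. The points of TNFRSF14 all lie above them, as in 15.2%, and the genes marked as not tested stay at or below 1.03 CPM.

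The members are spread over 5 chromosomes of hg38, with 5 of them on chromosome 1. TNFRSF18 (1203508 to 1206592, minus strand) and TNFRSF4 (1211326 to 1214153, minus strand) are neighbours there, 4734 bases apart. TNFRSF14 (2555639 to 2565382, plus strand), TNFRSF9 (7915871 to 7943165, minus strand) and TNFRSF8 (12063303 to 12144207, plus strand) follow on the same chromosome. CD70 (6583183 to 6604103) and TNFSF14 (6661253 to 6670588) lie 57150 bases apart on the minus strand of chromosome 19. LTB (31580525 to 31582522, minus strand) lies beside LTA and TNF on chromosome 6, CD27 (6444955 to 6451718, plus strand) on chromosome 12 and TNFRSF13C (41922032 to 41926806, minus strand) on chromosome 22. All of them are annotated as protein-coding in GENCODE, and their canonical transcripts run from 893 nt in LTB to 5872 nt in TNFRSF9.

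The promoters of 4 members hold an NF-κB consensus match, and these are printed because NF-κB is the pathway that the receptors of this family activate. RefSeq gave promoter windows (GRCh38.p14, 250 bases before to 50 bases after the annotated start) for TNFRSF8, TNFRSF9, TNFRSF14, TNFRSF18, CD27, TNFSF14 and LTB. Searched on both strands, the NF-κB consensus was found in 4 of these 7 windows, and in 10.8% of all 27305 windows. Among the 9138 windows of genes tested the share was 12.7%. Each stretch below is written 5′ to 3′ on the strand of the gene, with the match, or overlapping matches merged, in capitals.
TNFRSF14, chr1:2556276-2556305, plus strand: atggactttGGGGGGCTCCCCcttctacag
TNFRSF9, chr1:7940894-7940922, minus strand: agctgtggtGGGAATTTCCCatgagaccc
LTB, chr6:31582492-31582521, minus strand: aggggtgtgcGGAAAGTCCCagccaggtgt
TNFSF14, chr19:6670333-6670361, minus strand: gggaaagctGGGGGCTCCCCactgcactt
The matches begin 86, 74, 86 and 192 bases before the RefSeq start in TNFRSF14, TNFRSF9, LTB and TNFSF14, and LTB holds another one after its start. The RefSeq starts differ from the outermost GENCODE starts given above, and these 4 stretches lie within the GENCODE spans of their genes. The 9-letter motif TTCNNNGAA, a form bound by STAT proteins, was found in TNFRSF9 and LTB, in 7.88% of all windows and in 6.35% of those of genes tested. It does not overlap the NF-κB matches.
TNFRSF9, chr1:7941008-7941036, minus strand: agagagctgcTTCCAAGAAgcaatttgaa
LTB, chr6:31582572-31582600, minus strand: tcttccccagTTCAGAGAAcccaggcatc
Genes with these letters in the promoter fell (LTB and TNFSF14) or did not pass the test (TNFRSF9 and TNFRSF14). A match is a description of the sequence and not a measured site.

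The genes differed widely in level. Per kb of the canonical transcript, LTB had 607.6 ± 32.0 CPM per kb (SD, n = 3) in shCtrl cells, far above TNFRSF8 with 27.4 ± 0.906, TNFSF14 with 18.8 ± 1.02 and TNFRSF14 with 11.7 ± 0.816 CPM per kb. TNFRSF13C followed with 2.34 ± 0.517 CPM per kb and TNFRSF9 with 0.789 ± 0.124 CPM per kb. From LTB down to TNFRSF13C, the shCtrl libraries of one gene did not overlap those of the next. From TNFRSF9 on, the libraries of each gene overlapped those of the next, through CD70 (0.616 ± 0.458 CPM per kb), CD27 and TNFRSF18 to TNFRSF4 (0.145 ± 0.250 CPM per kb).

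In shmiR155HG cells the first 7 places of the order were held by the same genes. TNFRSF13C, at 1.41 ± 0.239 CPM per kb (SD, n = 3), then overlapped TNFRSF9, at 1.09 ± 0.202 CPM per kb. TNFSF14, at 15.4 ± 0.769 CPM per kb, and TNFRSF14, at 13.5 ± 0.797 CPM per kb, lay closer to each other than in shCtrl cells but still did not overlap. These levels rest on the length of 1 annotated transcript per gene, of which 4964 of 5872 nt in TNFRSF9 and 3335 of 3923 nt in TNFRSF13C are 3′UTR.

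**Figure D2:**
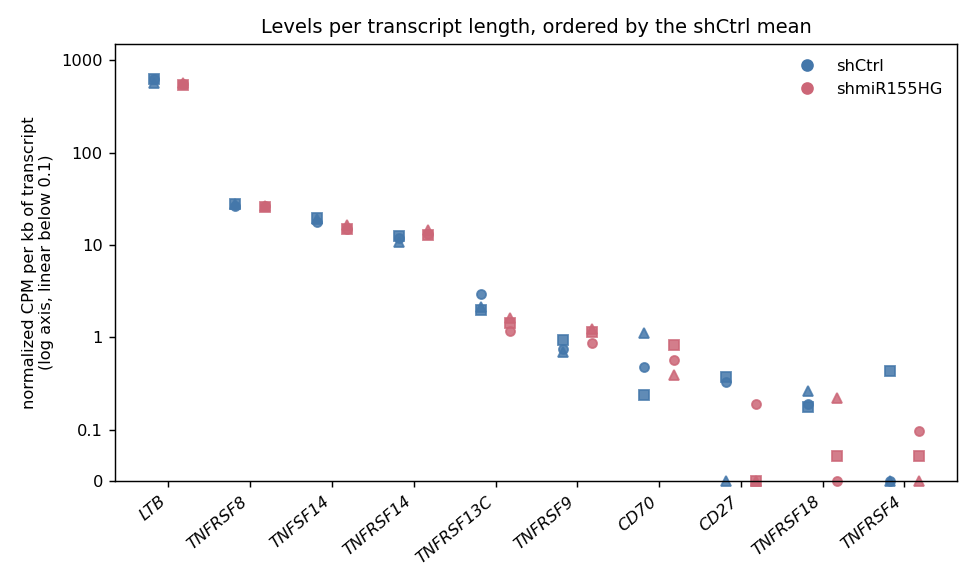
Normalized CPM per kb of canonical transcript (log axis, linear below 0.1) for each gene in each library, ordered by the shCtrl mean, with circles, squares and triangles for replicates 1, 2 and 3. LTB stands above all others at 539 to 631 CPM per kb, and the libraries of CD70, CD27, TNFRSF18 and TNFRSF4 scatter at or below 1.13 CPM per kb.

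TNFRSF13C (ENSG00000159958, 3 exons), which encodes the receptor for the B cell survival factor BAFF, showed the largest difference among the 6 members tested. Its level was 11.5, 7.76 and 8.31 CPM in the shCtrl libraries, and 4.56, 5.65 and 6.43 CPM in the shmiR155HG libraries. Every shmiR155HG library lay below every shCtrl library, as in 15.6% of all genes tested, and shCtrl replicate 1 stood above the rest of its group. The shCtrl mean of 9.20 ± 2.03 CPM compares with 5.55 ± 0.938 CPM after the knockdown (both SD, n = 3). The log2 fold change was −0.73 (SE 0.19, 95% interval −1.11 to −0.35, adjusted p = 0.00710 by edgeR's quasi-likelihood test). The call was lost without shCtrl replicate 1 (log2 fold change −0.54, adjusted p = 0.0979) and without shmiR155HG replicate 1 (−0.61, adjusted p = 0.0566).

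TNFRSF13C is a gene of B cells, so B cell genes were read beside it. EBF1 had 0 counts in all libraries, MS4A1, CD22, CD79B and BLK had at most 8 in any library, and CD79A had 9 to 43. PAX5, a B cell transcription factor, was the exception among these markers, with 8777 to 10269 counts in shCtrl and 11488 to 13088 counts in shmiR155HG libraries. It rose (log2 fold change 0.49, SE 0.042, adjusted p = 1.70e-09 by edgeR), opposite in direction to TNFRSF13C.

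TNFRSF14 (ENSG00000157873, 8 exons) encodes HVEM, the receptor for LIGHT. Its level was 20.4, 21.1 and 18.4 CPM in the shCtrl libraries, and 22.2, 22.1 and 24.5 CPM in the shmiR155HG libraries. The groups did not overlap, which was also the case for 30.8% of all genes tested, 15.2% with the higher values in shmiR155HG cells. The log2 fold change of 0.20 (SE 0.10, 95% interval −0.0093 to 0.41) did not pass the test (adjusted p = 0.208 by edgeR). Over the 12216 genes tested with a known GC content, log2 fold changes rose with it (Spearman correlation 0.249). With a correction for GC content, which is 62.2% in the transcript of TNFRSF14, its log2 fold change was 0.13 (adjusted p = 0.449). TNFRSF14-AS1, an antisense lncRNA with 333 to 582 counts per library, overlaps 1393 bases of the gene, and reads of the pair can be told apart only if the counting used strand, which is not stated.

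TNFRSF9 (ENSG00000049249, 8 exons) encodes 4-1BB, a receptor induced on activated T and NK cells. Its level was 4.40, 5.46 and 4.05 CPM in the shCtrl libraries, and 5.06, 6.78 and 7.33 CPM in the shmiR155HG libraries. The value of shmiR155HG replicate 1 lay below shCtrl replicate 2, so the groups overlapped. The log2 fold change was 0.46 (SE 0.21, 95% interval 0.041 to 0.88), with an unadjusted p of 0.0329 and an adjusted p of 0.140 by edgeR. It was the 1 member with a positive estimate whose unadjusted p was under 0.05, and no member was called higher by edgeR's exact test, DESeq2 or limma-voom either.

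TNFRSF8 (ENSG00000120949, 15 exons) encodes CD30, a marker of activated lymphocytes and of several lymphomas, and was the most abundant receptor of the 7. Its level was 99.1, 104.5 and 105.5 CPM in the shCtrl libraries, and 99.0, 98.1 and 99.5 CPM in the shmiR155HG libraries. The groups overlapped, since shCtrl replicate 1 lay below shmiR155HG replicate 3. The log2 fold change was −0.060 (SE 0.050, 95% interval −0.16 to 0.043, adjusted p = 0.486 by edgeR), and the interval includes small falls. With the GC correction the log2 fold change was −0.12 (adjusted p = 0.102), with a GC content of 61.3% in the transcript.

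TNFSF14 (ENSG00000125735, 4 exons) encodes LIGHT, a ligand of HVEM and LTBR that activated T and NK cells display. Its level was 79.5, 88.6 and 85.4 CPM in the shCtrl libraries, and 67.1, 67.1 and 73.1 CPM in the shmiR155HG libraries. The highest shmiR155HG library was below the lowest shCtrl library, as in 15.6% of all genes tested. The log2 fold change was −0.29 (SE 0.060, 95% interval −0.41 to −0.17, adjusted p = 0.00110 by edgeR). The fall passed the test in all 17 alternative settings, including each library left out, with log2 fold changes from −0.33 to −0.25.

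LTB (ENSG00000227507, 4 exons) encodes lymphotoxin beta, which holds LTA at the cell surface. Its level was 554.4, 563.4 and 510.0 CPM in the shCtrl libraries, and 494.9, 481.3 and 500.5 CPM in the shmiR155HG libraries. The groups did not overlap (shmiR155HG lower, as in 15.6% of all genes tested), although shCtrl replicate 3 lay close above shmiR155HG replicate 3. The log2 fold change was −0.14 (SE 0.036, 95% interval −0.21 to −0.067, adjusted p = 0.00739 by edgeR). The call was lost without shCtrl replicate 2 (−0.11, adjusted p = 0.0844) and without shmiR155HG replicate 2 (−0.12, adjusted p = 0.0759). With the GC correction the log2 fold change was −0.23 (adjusted p = 0.000330). The GC content of the transcript is 64.5%, and the 764 genes tested within 2 percentage points of it had a median log2 fold change of 0.087.

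The authors' own rule (a raw P under 0.01 in edgeR's exact test together with a fold change above 1.2) was rerun on the deposited counts. It called TNFRSF13C and TNFSF14 lower. The rerun called 8.29% of all genes, 4.49% higher (551 genes) and 3.8% lower (466 genes). These numbers are smaller in each direction than those the paper reports, and the cause was not tested. LTB was not called by the rule because its fold change was under 1.2 (unadjusted P = 0.00147). No member was higher by this rule.

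The other members were at the edge of detection. A count of 0 allows up to 3 counts, or 0.0770 to 0.0897 CPM depending on the library, and this limit covers counting error only. It takes a count as 1 read, which is not certain here, because the deposited counts were derived from coverage with a read length setting that is not given, and it scales with that unit. TNFRSF4, the receptor for OX40 ligand, had 0, 17 and 0 counts in the shCtrl libraries, and 4, 2 and 0 counts in the shmiR155HG libraries. TNFRSF18, which encodes GITR, had 8, 7 and 11 counts against 0, 2 and 8. The groups of both genes overlapped, and most of the counts of TNFRSF4 came from a single shCtrl library.

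CD27 and its ligand CD70 form a receptor pair, and both were low. CD27 had 16, 17 and 0 counts in the shCtrl libraries, and 9, 0 and 0 counts in the shmiR155HG libraries. CD70 had 17, 8 and 40 counts against 20, 29 and 12. CD27-AS1, an antisense lncRNA with 52 to 111 counts per library, covers 6653 bases of CD27 and had more counts than CD27 in every library. In the fit without a filter on low counts, the adjusted p from edgeR was 0.745 for TNFRSF4, 0.717 for TNFRSF18, 0.518 for CD27 and 0.990 for CD70, and a difference in these genes was not detectable at this depth.

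**Figure D3:**
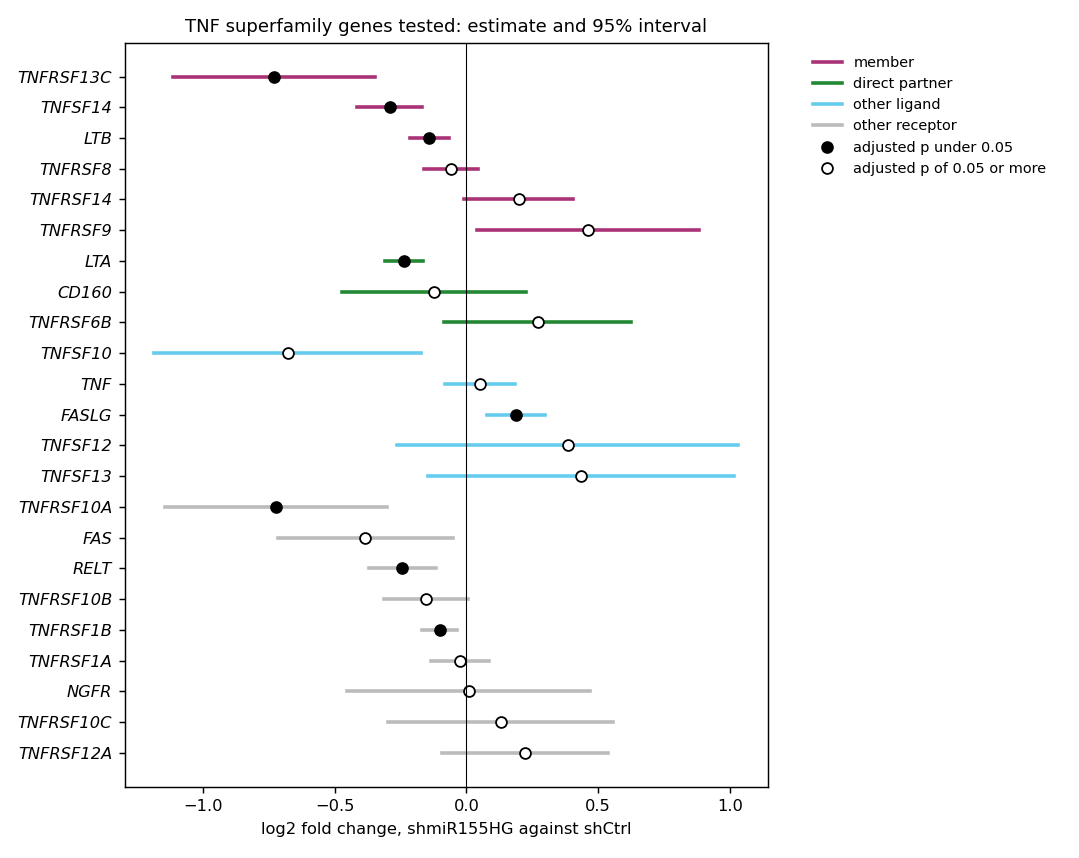
Log2 fold change (shmiR155HG against shCtrl) with its 95% interval for the 23 TNF superfamily genes and partners tested, coloured by list and filled where the adjusted p was under 0.05. The intervals of TNFRSF13C, TNFSF14, LTB and LTA lie below 0 with filled points, and the widest intervals belong to genes with few counts, such as TNFSF12.

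The genes that encode direct partners of the members were next considered, as 10 genes of which 3 passed the filter. LTA, which pairs with LTB in the surface heterotrimer, fell from 574.0 to 487.4 CPM, or by 0.24 on the log2 scale (SE 0.035, adjusted p = 2.06e-05 by edgeR). CD160, a ligand of HVEM on NK cells, had a log2 fold change of −0.12 (adjusted p = 0.705) and TNFRSF6B, a soluble decoy receptor that binds LIGHT, one of 0.27 (adjusted p = 0.333). LTBR, the receptor for LTB and LIGHT, had 0 counts in all 6 libraries, and BTLA had 0 to 8. The ligands of OX40, CD30, 4-1BB and GITR (TNFSF4, TNFSF8, TNFSF9 and TNFSF18) had at most 25 counts in a library, and TNFSF13B, the ligand of the BAFF receptor, had 11 to 56.

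Pairs of counts within a library, chosen after the values were seen, do not depend on the scaling between libraries. The count of TNFRSF14 divided by that of its ligand TNFSF14 was 0.256, 0.238 and 0.215 in the shCtrl libraries, and 0.330, 0.329 and 0.335 in the shmiR155HG libraries. The ratio was higher in every shmiR155HG library, which the choice of a gene with all values higher and one with all values lower had fixed, so it was not tested. The count of LTB divided by that of LTA was 0.926, 1.04 and 0.877 in shCtrl and 1.009, 1.003 and 1.018 in the shmiR155HG libraries. These ranges overlapped.

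In the rest of the superfamily, 5 of 9 other ligands and 9 of 20 other receptors were tested, and 1 ligand rose and 3 receptors fell. Of all genes tested 7.26% rose and 8.02% fell. FASLG, the death ligand of cytotoxic lymphocytes, rose by a log2 fold change of 0.19 (adjusted p = 0.0163 by edgeR), a call lost without shmiR155HG replicate 1 (adjusted p = 0.0638). TNFRSF10A, a receptor for the death ligand TRAIL, fell by 0.72 on the log2 scale (adjusted p = 0.0153), a call lost without shCtrl replicate 3, shmiR155HG replicate 1 or shmiR155HG replicate 3 (adjusted p 0.0503 to 0.0991). RELT, an orphan receptor of lymphoid tissue, fell by 0.24 (adjusted p = 0.00659), in every setting. TNFRSF1B, the second TNF receptor, fell by 0.10 (adjusted p = 0.0286), but only shCtrl replicate 1 could be left out without losing the call (adjusted p up to 0.115). The median log2 fold change over all 23 superfamily and partner genes tested was −0.060, beside 0.00097 over all genes tested.

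All 18 genes listed for TRAF adaptors and regulators were tested, and 2 rose while the other 16 did not pass the test. Of all genes tested 15.3% passed, 7.26% as higher. The median log2 fold change over the list was 0.031. BIRC2, a ubiquitin ligase recruited by TRAF proteins, rose by a log2 fold change of 0.22 (adjusted p = 0.0128 by edgeR) and TRAF3, which holds back the non-canonical pathway, by 0.15 (adjusted p = 0.0168). The call of TRAF3 was lost without shCtrl replicate 1 or shmiR155HG replicate 2 (adjusted p up to 0.149), and that of BIRC2 without shCtrl replicate 3, shmiR155HG replicate 2 or shmiR155HG replicate 3 (adjusted p up to 0.0698). TRAF1, TRAF2, TRAF5 and BIRC3 did not pass the test.

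Of 10 NF-κB pathway genes, all tested, 1 rose and 2 fell, where 7.26% of all genes tested rose and 8.02% fell. The median log2 fold change of the 10 was −0.0062. NFKBIA, the inhibitor that NF-κB itself induces, fell by 0.29 (adjusted p = 1.47e-05 by edgeR), in every setting. MAP3K14, the kinase NIK of the non-canonical pathway, fell by 0.27 (adjusted p = 0.00754), with the call lost without shmiR155HG replicate 1 (adjusted p = 0.0627). IKBKB, a kinase of the canonical pathway, rose by 0.21 (adjusted p = 0.0146), and shCtrl replicate 3 and shmiR155HG replicate 2 were the libraries whose removal kept the call (adjusted p up to 0.0907 without another). NFKB1, NFKB2, RELA, RELB and REL did not pass the test.

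The position of the members was not used to choose them, so the genes around them were counted. Within 100000 bases of a member, 57 other genes were tested, of which 2 were higher and 6 lower. Their median log2 fold change was 0.019, and of all genes tested 7.26% were higher and 8.02% lower. No neighbour of TNFRSF13C was called among 5 tested, and their log2 fold changes had a median of −0.074. TNFRSF1B, described above, lies 22784 bases from TNFRSF8 and was the 1 called neighbour of 5 there. Beside TNFSF14 and CD70, the complement gene C3 fell by 1.2 on the log2 scale (adjusted p = 0.0299 by edgeR), from 2.14 to 0.933 CPM, a call lost when any of 4 libraries was left out (shCtrl replicates 1 and 3, shmiR155HG replicates 1 and 2, adjusted p up to 0.118). TNFRSF14 had 1 called neighbour of 5, PLCH2, a phospholipase gene, which rose by a log2 fold change of 0.86 (adjusted p = 0.000212).

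The region around LTB held the most tested neighbours of any member and most of the calls. Of its 17 neighbours 4 were lower and 1 higher, beside 8.02% and 7.26% of all genes tested. LTA and NCR3, the gene of the activating receptor NKp30, fell by 0.24 each. MICB, a stress ligand of the receptor NKG2D, fell by 0.28 (adjusted p = 0.00280 by edgeR), and LST1, a leukocyte transcript, by 0.47 (adjusted p = 0.0223). The call of LST1 was lost without shCtrl replicate 1, shCtrl replicate 2, shmiR155HG replicate 1 or shmiR155HG replicate 3 (adjusted p up to 0.143). TNF, 2189 bases from LTB, had a log2 fold change of 0.052 (adjusted p = 0.670), which did not pass the test, and BAG6 in the same region rose (0.17, adjusted p = 0.00835). Without shCtrl replicate 1, PLCH2 was the 1 neighbour of any member still called higher, so BAG6 lost its call there.

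Since MIR155HG is the precursor of miR-155, the 3′UTRs of the members were read for the 7-base complement of its seed. The mature miR-155-5p listed by RefSeq is given with the seed, bases 2 to 8, in capitals.
miR-155-5p: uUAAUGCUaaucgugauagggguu
The complement, AGCATTA, was found in none of the 10 members' 3′UTRs, from 151 nt in LTB to 4964 nt in TNFRSF9, and in 11.9% of the 10755 genes tested that have an annotated 3′UTR. The absence of these letters in 1 transcript per gene says nothing on other sites or transcripts.

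**Figure D4:**
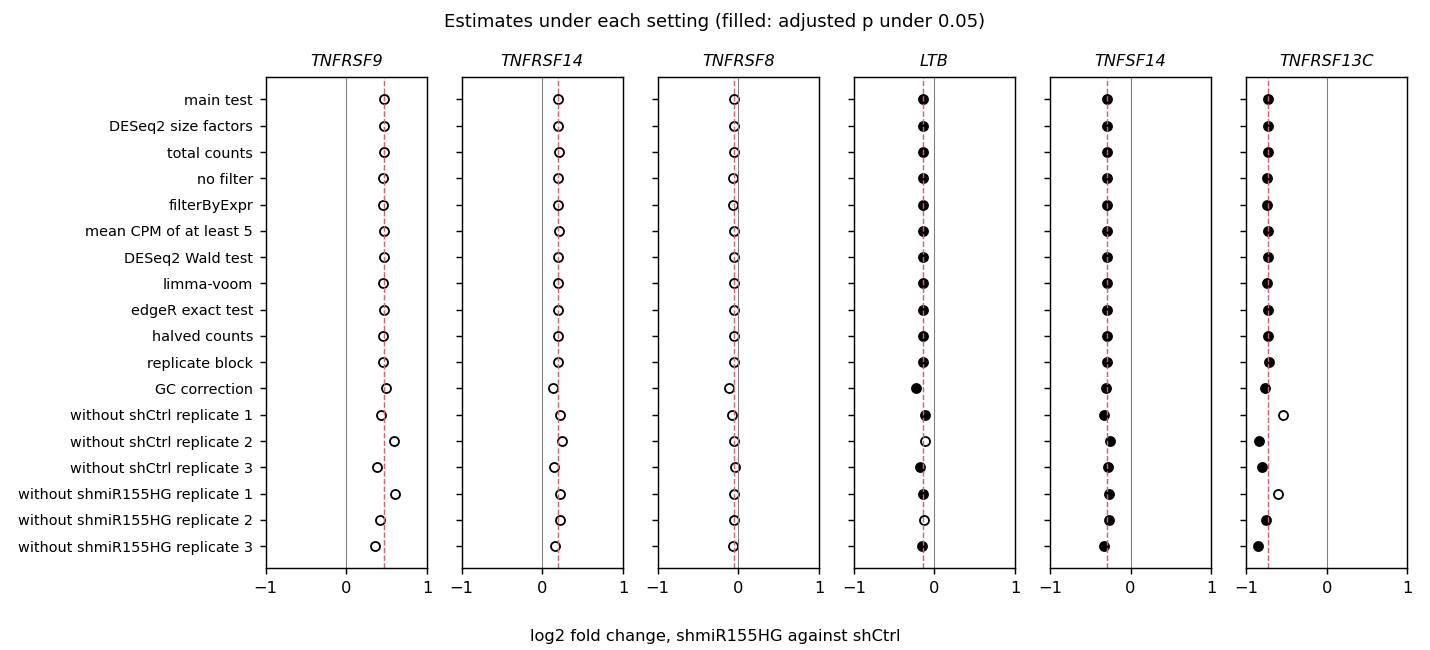
Log2 fold change of the 6 members tested (horizontal axes) under the main test and 17 alternative settings (rows), filled where the adjusted p was under 0.05, with a dashed line at the main value. TNFSF14 is filled in every row, TNFRSF13C and LTB are open in 2 rows each, and the sign of each member is the same in all rows.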

How the data were processed

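Gene counts from RNA-seq of 6 NK92 libraries (shCtrl and shmiR155HG, 3 each) were analysed. The authors deposited, for each gene and library, whole-number counts that had not been normalized. Per the methods, poly(A)-selected RNA was sequenced in pairs of 150 bases, aligned to hg38 with HISAT2, and counted with StringTie and prepDE.py3. Annotation release, versions, strand use and the read length given to prepDE.py3 are not given in the sources used here. The last sets how many counts 1 read gives, so a count may not be 1 read, and halved counts were an alternative. Groups follow the sample titles, since the treatment labels of shmiR155HG replicates 2 and 3 spell the target with other numbers.

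Genes above 1 CPM in 2 or more libraries entered the fit, were scaled with TMM, and tested with edgeR 4.0.16 (quasi-likelihood, robust, no replicate block, R 4.3.3), with Benjamini-Hochberg adjustment over all genes tested. limma 3.58.1 and DESeq2 1.42.0 served as alternatives. The quasi-likelihood, exact, limma-voom and DESeq2 tests were tried on simulated data with the main filter. The other alternative settings were not. Normalized CPM is the count divided by the TMM-scaled total of these genes, times 1000000. Counts measure precision only to counting error plus the spread between 3 libraries, and include PCR duplicates. If a count is 1 read, which is not certain, replicates differed by more than sampling noise (mean chi-square 7.35 to 10.9 per gene, where 1 is expected). Positions, lengths and GC content come from GENCODE release 44 for hg38, which matched 36366 of 36601 genes.

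The members and lists were chosen with earlier results of these data known. Named genes were all members, MIR155HG, the direct partners that passed the filter, up to 6 called genes per list with the largest change, and called neighbours with a fold over 1.2. BAG6, NCR3, TNF and single markers were named after their values were seen, as were genes given only as not passing or near 0. A B cell marker of the list, and the list's sum, are not reported here.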

Additional observations from a re-analysis of the deposited data

How the results depend on the processing

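Leaving out 1 library at a time gave log2 fold changes of −0.85 to −0.54 for TNFRSF13C and −0.18 to −0.11 for LTB, 2 to 3 members called lower, 580 to 891 genes higher over the whole table (580 without shmiR155HG replicate 2), 2 to 3 genes higher and 3 to 6 lower in the partner, superfamily, TRAF and NF-κB lists (4 and 6 with all libraries), and 1 to 3 higher and 3 to 5 lower among the neighbours. With edgeR's exact test, 4 neighbours were higher. Fewer libraries enter these fits, and other causes were not tested. Same-numbered libraries did not deviate together (correlations −0.0128, 0.0121 and 0.0197), and with the replicate number as a block 829 genes were higher and 909 lower, the same number of members, 3, was lower, and TNFRSF1B lost its call (adjusted p = 0.0532 by edgeR). TNFRSF1B also lost it in the exact test (adjusted p = 0.0601). TNFSF14 stayed lower in all 17 alternatives, and none of the 24 genes followed through the alternatives (the members and partners tested, MIR155HG, the called list genes, PLCH2, C3, MICB, LST1 and NCR3) changed sign, while other genes named in the text were not followed. Low counts limit TNFRSF4, TNFRSF18, CD27 and CD70, for which only large differences could be seen.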
